A study of Mus musculus with 2 samples.

Results

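The globin genes of the mouse were described in total RNA from embryonic midbrain. The members were the 7 genes whose identifiers, with the version removed, carry the symbols Hbb-y, Hbb-bh1, Hbb-bt, Hbb-bs, Hba-x, Hba-a1 and Hba-a2 in the GENCODE annotation. All 7 symbols were matched, out of 43346 gene rows. The tissue was midbrain of B6NCrl mouse embryos of mixed sex at embryonic day 11.5, with no treatment. It was measured in 1 group of 2 biological replicates, a pool of 88 embryos (replicate 2) and a pool of 109 embryos (replicate 1). Each replicate is a pool, so the spread given is between pools and not between embryos. The library depth was 49256468 expected counts (estimated reads) for replicate 2 and 41760197 for replicate 1, with 45975100 and 38884247 assigned to gene rows. Of 9 midbrain markers such as Otx2 and Wnt1, all 9 reached 1 TPM (a relative abundance corrected for transcript length) in both libraries. All 6 neuron and progenitor markers did too, beside 32.1% of all gene rows.

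The globins described here form the oxygen carrier of red blood cells, in which alpha-type and beta-type chains, each with its own heme, join. In the mouse, the first red cells come from the yolk sac and circulate while still nucleated, and they make the embryonic chains encoded by Hba-x (zeta), Hbb-y (epsilon y) and Hbb-bh1 (beta h1) beside the adult alpha chains of Hba-a1 and Hba-a2. Red cells made later, from the fetal liver onwards, use Hba-a1 and Hba-a2 with the adult beta genes Hbb-bs and Hbb-bt. The beta-type genes lie together on chromosome 7 and the alpha-type genes on chromosome 11, each cluster with distant enhancers upstream of its embryonic end.

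The adult genes of each cluster form a pair of near-identical copies, and this bears on every level given for them. Over the coding sequence without its stop codon, Hba-a2 and Hba-a1 differed at 1 of 426 bases and Hbb-bt and Hbb-bs at 1 of 441. With positions counted from 1 at the first base of the start codon, the differences were T381C (Hba-a2 first) and T417C (Hbb-bt first). The stretches around them are shown because they are the coding letters that separate each pair, with the differing base in capitals, from the reference transcripts (GENCODE M21, mm10):
Hba-a2 (chr11:32297130-32297184, plus strand): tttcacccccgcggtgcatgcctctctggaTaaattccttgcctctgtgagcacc
Hba-a1 (chr11:32284313-32284367, plus strand): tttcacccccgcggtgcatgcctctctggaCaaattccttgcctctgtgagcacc
Hbb-bt (chr7:103812659-103812713, minus strand): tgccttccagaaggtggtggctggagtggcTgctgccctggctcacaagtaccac
Hbb-bs (chr7:103826668-103826722, minus strand): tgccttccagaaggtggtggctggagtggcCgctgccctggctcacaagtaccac

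The embryonic genes were far from these copies. Hbb-y was identical to Hbb-bh1 at 76.4% of coding bases and to Hbb-bt at 74.1%, and Hba-x was identical to Hba-a1 at 61.7%. In the deposited estimates the standard deviation of the read count from assigning reads was 0 in both libraries for Hbb-y, Hbb-bh1 and Hba-x, as it was for 66.4% of 13895 genes at 1 TPM or more in both libraries. For Hba-a2 and Hba-a1 it was 220 reads each in replicate 2 and 187 each in replicate 1. For Hbb-bt and Hbb-bs it was 53.7 reads each in replicate 2 and 47.0 each in replicate 1, which was 3.11% and 3.16% of the Hbb-bs count. The values were equal within each pair. The deposited estimate of the split inside a pair thus carries an error from read assignment that was 0 for the embryonic genes.

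The promoters of the highest embryonic and adult gene in each cluster are shown to set their letters side by side. The windows run from 250 bases before to 50 bases after the RefSeq start (mm10), and 6 of 7 members were matched. Capitals mark the CACCC motif, the CCAAT box, the GATAA motif and the TATAA box on either strand, which are known from globin promoters, and overlapping matches run together:
Hbb-y (chr7:103853158-103853457, minus strand): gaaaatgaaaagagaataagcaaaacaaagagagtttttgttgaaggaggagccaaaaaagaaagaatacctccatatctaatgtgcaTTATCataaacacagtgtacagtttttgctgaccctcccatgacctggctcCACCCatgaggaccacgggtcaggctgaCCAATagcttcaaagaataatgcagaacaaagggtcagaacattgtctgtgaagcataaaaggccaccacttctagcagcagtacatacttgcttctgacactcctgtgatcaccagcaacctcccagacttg
Hbb-bt (chr7:103813874-103814173, minus strand): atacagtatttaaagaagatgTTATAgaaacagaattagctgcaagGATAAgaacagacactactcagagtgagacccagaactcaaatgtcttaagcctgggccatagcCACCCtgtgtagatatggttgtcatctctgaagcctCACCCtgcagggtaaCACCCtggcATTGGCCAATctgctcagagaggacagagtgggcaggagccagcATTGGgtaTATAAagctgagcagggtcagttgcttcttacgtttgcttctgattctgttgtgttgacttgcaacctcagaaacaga
Hba-x (chr11:32276350-32276649, plus strand): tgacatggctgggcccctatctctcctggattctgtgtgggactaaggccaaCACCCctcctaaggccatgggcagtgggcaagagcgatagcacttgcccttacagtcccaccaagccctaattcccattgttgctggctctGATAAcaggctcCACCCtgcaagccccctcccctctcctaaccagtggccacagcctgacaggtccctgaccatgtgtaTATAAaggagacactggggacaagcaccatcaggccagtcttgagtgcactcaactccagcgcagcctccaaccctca
Hba-a2 (chr11:32296242-32296541, plus strand): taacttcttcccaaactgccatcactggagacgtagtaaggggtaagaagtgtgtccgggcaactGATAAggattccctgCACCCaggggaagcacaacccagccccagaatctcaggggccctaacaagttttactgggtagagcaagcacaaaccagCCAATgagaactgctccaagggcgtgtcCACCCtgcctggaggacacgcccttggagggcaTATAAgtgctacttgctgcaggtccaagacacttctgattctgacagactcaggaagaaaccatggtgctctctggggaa

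CACCC or its reverse complement was present in all 6 matched windows, against 57.5% of 32851 promoter windows of the same length, and GATAA in all 6, against 25.4%. CCAAT was present in 5 of 6, against 37.4%, with no match in the Hba-x window, and TATAA in 5 of 6, against 24.9%, with no match in the Hbb-y window. Hbb-bt held 3 CACCC matches, starting 140, 104 and 89 bases before the start, and Hbb-bs held 1, at 90. The Hba-a1 and Hba-a2 windows shared an unbroken stretch of 297 of 300 bases, whereas the longest stretch shared by the Hbb-bt and Hbb-bs windows was 14 bases. These matches are descriptions of the letters only.

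Beta-type RNA was mostly embryonic. Hbb-y (ENSMUSG00000052187, mm10 chromosome 7, 103851749 to 103853216, minus strand) had 8295 TPM in replicate 2 and 8327 TPM in replicate 1, from 149302 and 125272 reads. Hbb-bh1 (ENSMUSG00000052217, 103841637 to 103843164) had 2145 and 2094 TPM, from 35384 and 28869 reads. Hbb-y was the higher in both libraries, at 3.92 ± 0.0777-fold the TPM of Hbb-bh1 (SD, n = 2). In such bulk samples, the level of a gene cannot separate the number of red cells from the globin RNA per cell.

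The adult beta genes were present at lower levels. Hbb-bt (ENSMUSG00000073940, 103812524 to 103813996) had 648 TPM in replicate 2 and 665 TPM in replicate 1, and Hbb-bs (ENSMUSG00000052305, 103826534 to 103828096) had 107 and 112 TPM. Together Hbb-y and Hbb-bh1 made up 93.2% ± 0.136 of the cluster's TPM, and their sum was 13.6 ± 0.292-fold that of Hbb-bt and Hbb-bs. By counts the embryonic share was 92.8% in replicate 2 (Wilson 95% interval 92.7% to 92.9%) and 92.6% in replicate 1 (92.5% to 92.8%). These intervals cover counting error only, with reads taken as independent. Within the adult pair, Hbb-bt was 6.04-fold above Hbb-bs in replicate 2 and 5.95-fold in replicate 1.

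Alpha-type RNA was mostly adult in the same libraries. Hba-a2 (ENSMUSG00000069917, mm10 chromosome 11, 32296489 to 32297298, plus strand) had 4393 TPM in replicate 2 and 4424 TPM in replicate 1, from 64011 and 53880 reads. Hba-a1 (ENSMUSG00000069919, 32283511 to 32284465) had 2233 and 2230.0 TPM, from 32086 and 26462 reads. Hba-x (ENSMUSG00000055609, 32276400 to 32278116), the embryonic member, had 2511 and 2459 TPM, from 53586 and 43557 reads.

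Hba-x thus made up 27.2% ± 0.352 of the alpha cluster's TPM, against 93.2% for the embryonic genes in the beta cluster. Its ratio to the sum of Hba-a1 and Hba-a2 was 0.374 ± 0.00666. By counts, which do not correct for length, its share was 35.8% in replicate 2 (Wilson 95% interval 35.6% to 36.0%) and 35.2% in replicate 1 (34.9% to 35.4%). In replicate 2 the effective length was 666 bases for Hba-x, 449 for Hba-a1 and 455 for Hba-a2. The Hba-a1 value reflects its assignment mostly to a retained-intron transcript of 494 bases, described below. Over both clusters the embryonic genes made up 63.6% ± 0.202 of globin TPM.

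The alpha cluster had less TPM than the beta cluster in both libraries. The 3 alpha-type genes had 9137 TPM in replicate 2 and 9113 TPM in replicate 1, against 11196 and 11197 TPM for the 4 beta-type genes. The alpha to beta ratio was 0.815 ± 0.00159 (SD, n = 2). Adult alpha RNA had little adult beta RNA beside it, since Hba-a1 and Hba-a2 together had 8.67 ± 0.148-fold the TPM of Hbb-bs and Hbb-bt. Hba-x had 0.238 ± 0.0032 of the summed TPM of Hbb-y and Hbb-bh1.

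**Figure D1:**
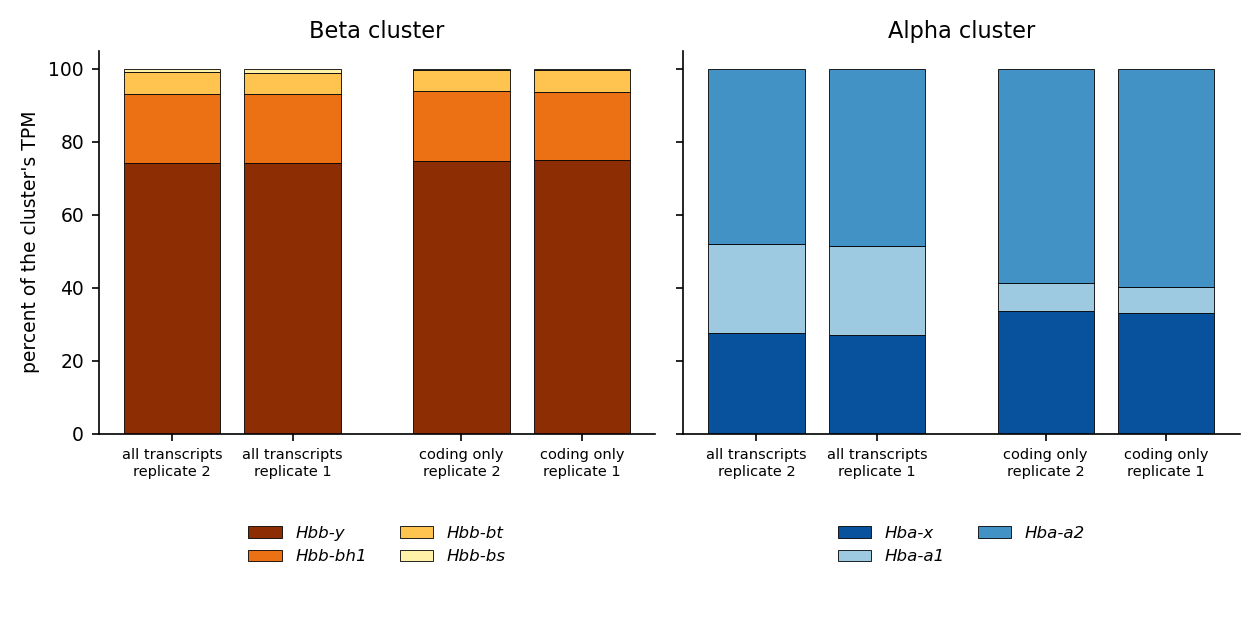
Share of each gene in the TPM of its cluster (vertical axis, percent), for replicate 2 and replicate 1, over all transcripts of a gene and over protein-coding transcripts only. The embryonic Hbb-y and Hbb-bh1 fill 93.2% of the beta cluster, while Hba-x fills 27.2% of the alpha cluster; the Hba-a1 segment shrinks when only coding transcripts are summed.

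Summed over all transcripts of a gene, the levels had the same order in both libraries. From high to low it ran Hbb-y, Hba-a2, Hba-x, Hba-a1, Hbb-bh1, Hbb-bt and Hbb-bs. The deposited intervals of every neighbouring pair were apart in both libraries, but they cover the estimation within a library and not the spread between pools. The closest neighbours were Hba-a1 and Hbb-bh1, with a ratio of 1.04 in replicate 2 and 1.06 in replicate 1, and Hba-x and Hba-a1, with 1.12 and 1.10. Among all genes Hbb-y ranked 2 by mean TPM, Hba-a2 10, Hba-x 26, Hba-a1 31, Hbb-bh1 36, Hbb-bt 161 and Hbb-bs 1433. All 7 reached 1 TPM in both libraries, which held for 32.1% of all gene rows.

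**Figure D2:**
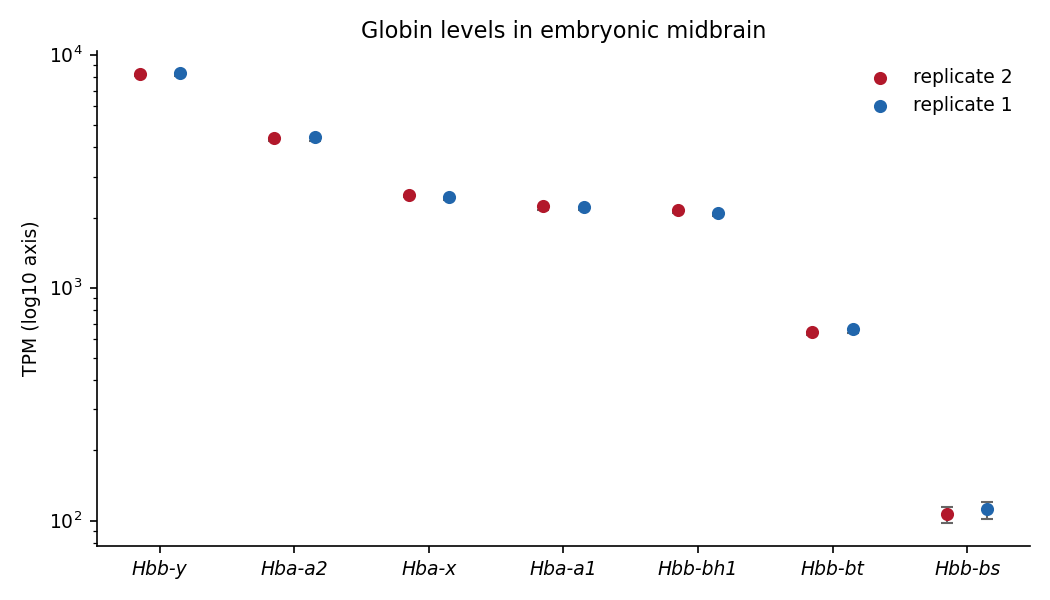
TPM of the 7 globins (vertical log10 axis) in replicate 2 and replicate 1, ordered by mean. Points are the deposited TPM and bars the deposited interval around the posterior mean, mostly narrower than the points, and a point can lie above its bar (for Hbb-y in replicate 2, 8295 TPM against an upper bound of 8188); the 2 libraries lie almost level for every gene, from 8311 TPM on average for Hbb-y to 109.5 TPM for Hbb-bs.

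Together the 7 genes made up 2.39% ± 0.00744 of the TPM on gene rows. By counts they took 0.758% of gene reads in replicate 2 (Wilson 95% interval 0.756% to 0.761%) and 0.747% in replicate 1 (0.744% to 0.749%). These intervals take reads as independent and leave out the spread between pools, so they cannot show a difference between the pools. TPM divides by length, and the effective lengths of the globins lay between 443 and 666 bases.

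Along the beta cluster, the level did not follow position in a single direction. From Hbb-y in the direction of transcription, Hbb-bh1 began at 10.1 kb, Hbb-bs at 25.1 kb and Hbb-bt at 39.2 kb, so the more distant adult gene was the higher of its pair. Hbb-bh2, a beta-type gene that begins at 12.7 kb, had 1 read in replicate 2 and 0 in replicate 1. The pseudogene Hbb-bh3, at 19.5 kb, had 0 reads in both, which allows up to 0.0653 counts scaled to library size (CPM) in replicate 2 and 0.0772 CPM in replicate 1. The pseudogene Hbb-bh0, at 3.07 kb, had 8.33 and 7.47 TPM, but these rest on 8 and 6 reads over an effective length of 30 bases.

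In the alpha cluster, Hba-x came first, Hba-a1 began at 7.11 kb and Hba-a2 at 20.1 kb, again with the distant member of the adult pair higher. The theta genes, alpha-type genes that lie after each adult alpha gene, were low. Hbq1b had 5.33 TPM in replicate 2 and 5.51 TPM in replicate 1, and Hbq1a had 0.59 and 0.23 TPM on 9.61 and 3.13 estimated reads. The split between the theta genes is uncertain, since they share 100-base stretches. Hba-ps4, an alpha pseudogene on chromosome 17, had 1 read in each library.

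**Figure D3:**
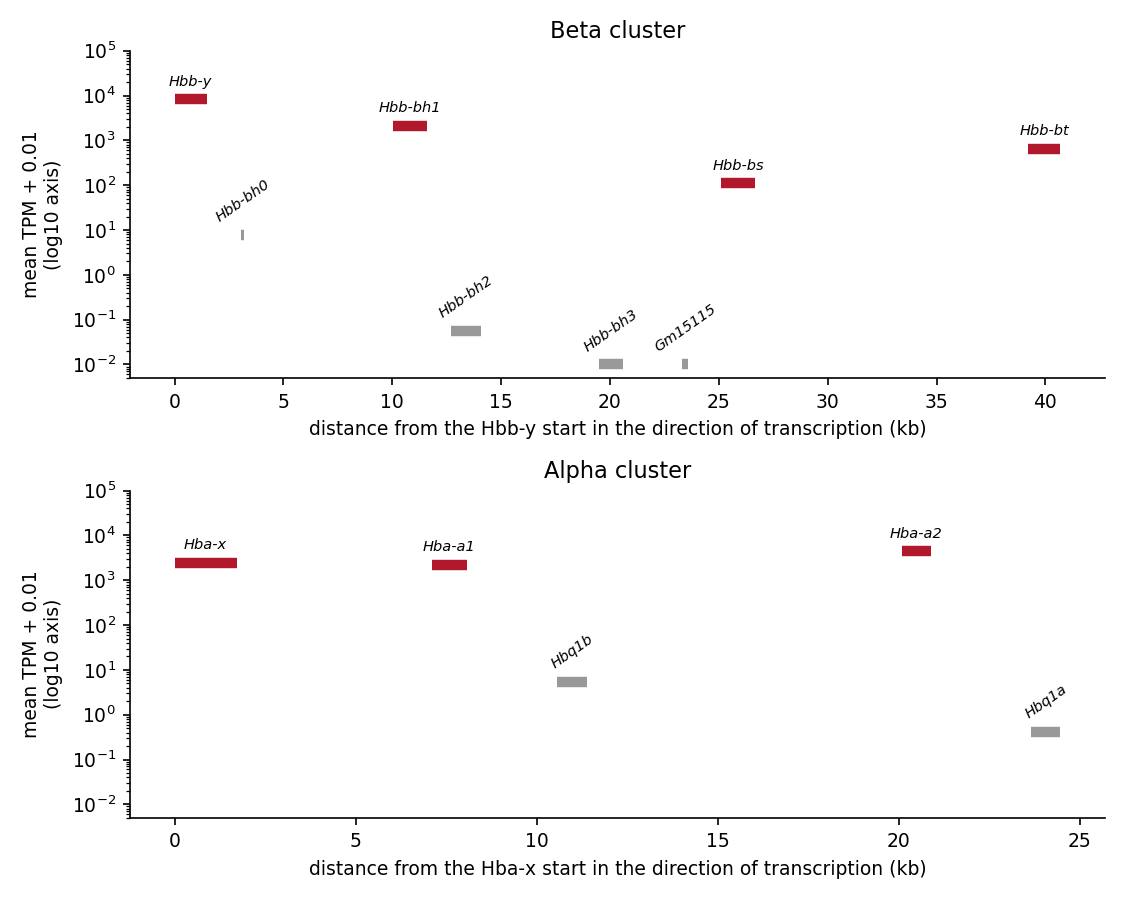
Mean TPM + 0.01 of the globin genes (vertical log10 axis) by distance from the first gene of each cluster in the direction of transcription (horizontal axis, kb); each segment spans a gene, red for the 7 described members and grey for other globin genes and pseudogenes. The red segments lie between 109.5 and 8311 TPM, and the grey ones at 7.9 TPM or less.

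The transcripts assigned to a gene differed sharply within the alpha pair. Nearly all Hba-a2 RNA was assigned to its spliced coding transcript, at 4393 TPM in replicate 2 and 4423 TPM in replicate 1. Hba-a1 was assigned mostly to a transcript annotated as retained-intron (ENSMUST00000142555, chromosome 11, 32283811 to 32284438), which begins inside intron 1. This transcript had 1647 and 1705 TPM, 75.1% ± 1.90 of its gene, whereas the coding transcript of Hba-a1 had 585 and 525 TPM. The matching retained-intron transcript of Hba-a2 had 0.22 and 0.25 TPM.

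Sequence held these transcripts apart only in part. The retained-intron transcripts of Hba-a2 and Hba-a1 have 494 bases each and differ at 1. The deposited effective lengths equal the length less 99 bases, the number of starts a 100-base stretch can take, so stretches of 100 bases were compared. Of the 395 such stretches in the retained-intron transcript of Hba-a1, 0 were absent from every other globin transcript. In the coding transcript of Hba-a2 the number was 20 of 455, and in that of Hba-a1 it was 165 of 600. Compared with transcripts of other globin genes only, the numbers were 96 of 395, 116 of 455 and 261 of 600. The coding transcript of Hba-a1 has 699 bases, against 554 for that of Hba-a2. It also begins further before the RefSeq start used for the promoter windows. How many of its stretches reach into that part was not counted. The retained-intron transcript of Hba-a1 covers 113 of the 122 bases of intron 1. The deposited standard deviation from assigning reads was 1.31% of its count in replicate 2 and 1.28% in replicate 1. How much of the retained-intron level of Hba-a1 came from the way reads were divided was not tested.

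Hbb-bs showed the same kind of assignment. Its retained-intron transcript (ENSMUST00000131960) had 82.0 TPM in replicate 2 and 88.7 TPM in replicate 1, 77.9% ± 2.00 of the gene, against 25.2 and 23.1 TPM for its longest coding transcript. Hbb-bt has 1 annotated transcript, which is coding. Of 5098 genes at 1 TPM or more that have both coding and retained-intron transcripts, 3.88% had at least 50% of their TPM in the retained-intron class in both libraries, Hba-a1 and Hbb-bs among them. Hba-x was divided between a coding transcript of 801 bases, with 82.9% ± 1.49 of the gene, and a second of 579 bases, with 17.1% ± 1.49, whose annotated coding start is incomplete.

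Counting coding transcripts only, a choice made after the values were seen, moved the split of each adult pair and the embryonic share of the alpha cluster, and moved that of the beta cluster least. Hba-a2 then made up 88.8% ± 0.813 of the adult alpha pair, against 66.4% ± 0.129 over all transcripts. Hbb-bs made up 3.55% ± 0.270 of the adult beta pair, against 14.3% ± 0.140. Coding Hba-a1 RNA was then below coding Hbb-bt RNA in both libraries, with 585 TPM in replicate 2 and 525 TPM in replicate 1 against 648 and 665 TPM. The embryonic share was 33.4% in the alpha cluster, against 27.2% over all transcripts, and 93.9% in the beta cluster, against 93.2%, and the alpha to beta ratio was 0.670 ± 0.00498.

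**Figure D4:**
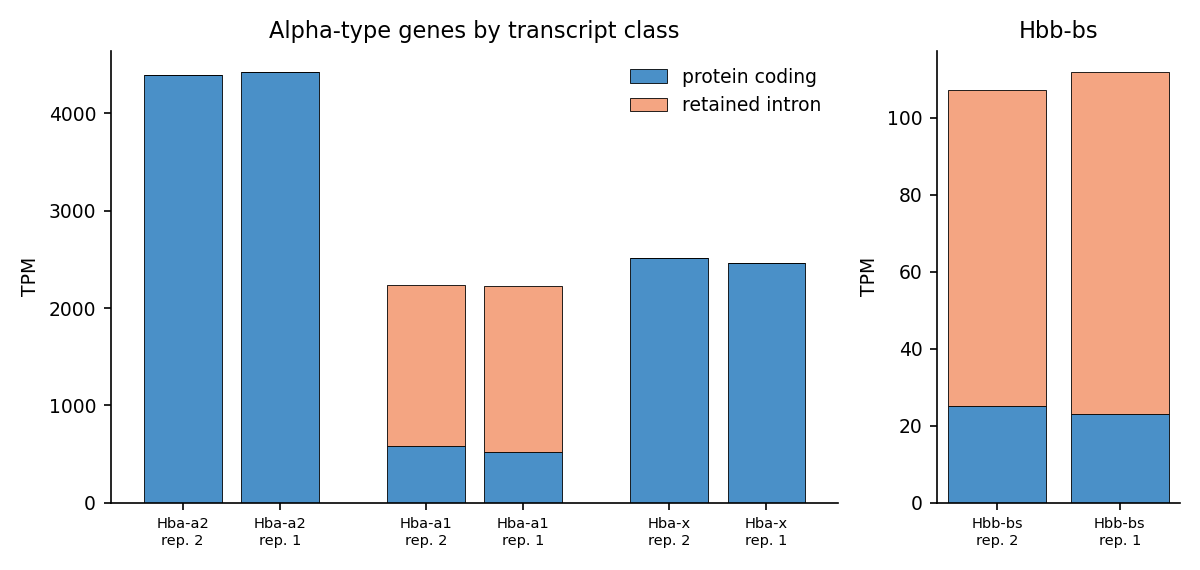
TPM by transcript class (vertical axes, starting at 0) for Hba-a2, Hba-a1 and Hba-x, and on a separate scale for Hbb-bs, in replicate 2 and replicate 1. The retained-intron class holds most of Hba-a1 (1647 and 1705 TPM) and of Hbb-bs (82.0 and 88.7 TPM), and almost none of Hba-a2.

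Between the pools the globins differed little. The log2 ratio of replicate 2 over replicate 1, on counts scaled by the trimmed mean of M-values (TMM), lay between -0.04 for Hbb-bs and 0.04 for Hba-x. The median absolute log2 ratio was 0.03 over the 7 globins and 0.11 over the 13895 genes at 1 TPM or more in both libraries. It was 0.07 over the 1595 of those genes that averaged 100 TPM or more, as all 7 globins did. Of the 7 globins 0 were at least 2-fold apart, against 0.453% of the 13895 genes (0.209% higher and 0.245% lower in replicate 2). The signs were mixed, with 3 higher and 4 lower in replicate 2, but all 7 were higher with spike-in scaling, which put the median log2 ratio of all genes at 0.065. By that scaling 37 genes were at least 2-fold higher and 29 lower, against 29 and 34 with TMM.

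By the deposited intervals 2 of the 7, Hbb-bh1 and Hba-x, were apart between the libraries, against 22.4% of the 13895 genes. Both were higher in replicate 2, by a log2 ratio of 0.04 each. With 1 library on each side there is no replicate check on such a difference. Among genes averaging 100 TPM or more, where intervals are narrow, 46% were apart in this way.

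**Figure D5:**
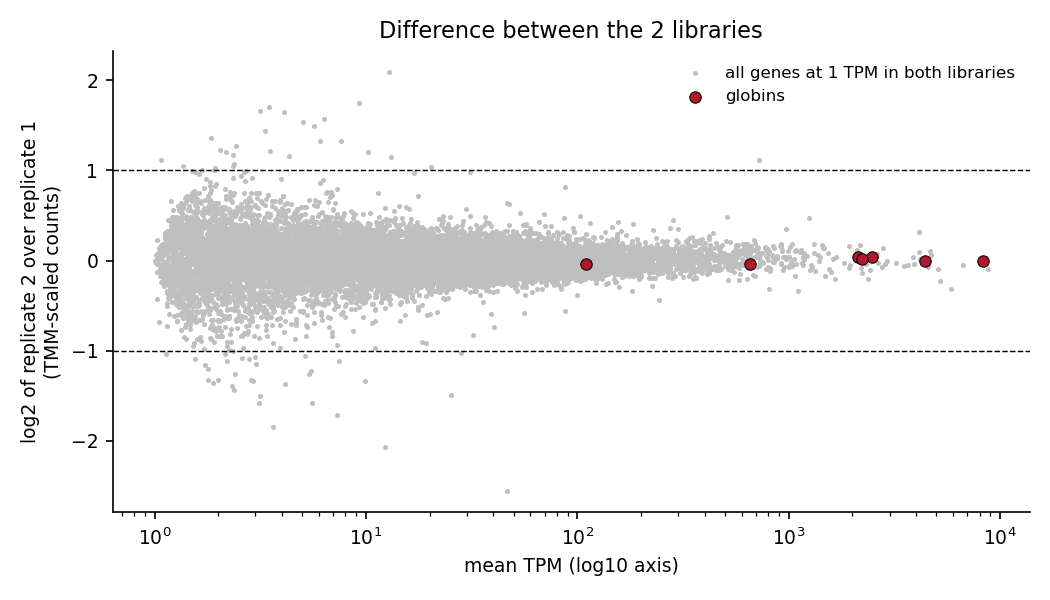
Log2 ratio of replicate 2 over replicate 1 on TMM-scaled counts (vertical axis) by mean TPM (horizontal log10 axis) for 13895 genes in grey and the 7 globins in red; dashed lines mark 2-fold. The globins lie between -0.04 and 0.04.

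Other genes of the red cell programme were present in both libraries at far lower levels. All 13 listed transcription factors of globin genes were at 1 TPM or more, beside 32.1% of all gene rows. The list's median was 6.37 TPM, against 16.4 TPM over all genes at 1 TPM or more in both libraries and 0.045 TPM over all gene rows. Ldb1, a bridging cofactor (58.8 ± 2.98 TPM), Bcl11a, a repressor of embryonic globin genes (33.0 ± 0.615 TPM), and Lmo2 (20.8 ± 1.65 TPM) were highest, and these 3 are also expressed in brain or vessels. Klf1, an activator of beta globin genes that is restricted to red cells, had 10.5 TPM in replicate 2 and 10.9 TPM in replicate 1. Klf1, and Alas2 below, were singled out after their values were seen.

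All 13 genes of heme synthesis and iron uptake were at 1 TPM or more, beside 32.1% of all gene rows. Their median was 41.5 TPM, against 16.4 TPM over all genes at 1 TPM or more in both libraries. Among the highest of the list were Urod (69.4 ± 5.76 TPM) and Alad (68.0 ± 2.59 TPM), enzymes that most cells use. Alas2, the first enzyme of heme synthesis in red cells, had 41.8 TPM in replicate 2 and 41.2 TPM in replicate 1. The 7 globins together had 487-fold the TPM of Alas2 in replicate 2 and 493-fold in replicate 1. All 11 matched genes of the red cell membrane were at 1 TPM or more, beside the same 32.1%. Their median was 6.34 TPM, against the same 16.4 TPM. The highest of the list were Epb41 (160.5 ± 7.52 TPM), the anion exchanger Slc4a1 (23.7 ± 0.240 TPM) and Rhd (15.5 ± 1.03 TPM). Which cells the RNA of these genes came from was not tested. The globin sum was 864-fold the TPM of Slc4a1 in replicate 2 and 851-fold in replicate 1. Over these 3 lists 0 genes were at least 2-fold apart between the libraries, beside the 0.453% given for all genes.

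Globins of other cells were low. Cygb, which encodes cytoglobin of fibroblast-like and other cells, had 1.59 TPM in replicate 2 and 1.31 TPM in replicate 1. Ngb, the neuronal globin gene, had 0.25 and 0.27 TPM on 12 and 11 reads, and the muscle globin gene Mb had 0 reads in both. Of 9 matched globin genes outside the 7, 3 reached 1 TPM in both libraries, beside 32.1% of all gene rows. They were Hbb-bh0, on 8 and 6 reads, Hbq1b and Cygb.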

How the data were processed

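Per the file headers, the deposited gene and transcript tables hold an expected count, which can be fractional. The authors' TPM and FPKM (not used) are scaled over all rows, 96 spike-in rows included. The authors' transcript tables add each transcript's percent of its gene. The TPM intervals deposited with them were read as signal values of unstated level. Spike-ins held 14.8% of TPM in replicate 2 and 15.2% in replicate 1. The submitters' notes name assembly mm10 and annotation M4; the aligner, quantifier and strand use were not given in the sources used here, so overlapping and antisense genes are uncertain. Per the labels a Smart-seq protocol is cited, so reads are not independent molecules.

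Symbols and coordinates came from GENCODE M21 on mm10 by identifier, and 42462 of 43346 genes matched. Hbb-b1, Hbb-b2, Hba-ps3 and Ahsp of the lists had no match. Reference transcripts of Hbb-y, Hbb-bh1, Hbb-bs and Hba-x have other versions than the deposited ones. Spike-in rows and 26248 numeric rows (13.25 and 4.44 counts in replicates 2 and 1) were left out. Shares and ratios were computed from TPM within each library, with mean and SD over 2 libraries. Ratios between libraries used counts rounded to whole numbers, a prior count of 1 and TMM factors (edgeR 4.0.16, R 4.3.3) over genes at 1 TPM or more in both; the script was tested on simulated data. No p-value is given, because an exact test over 2 libraries cannot pass 0.05. A count of 0 was read as allowing up to 3 counts. Named genes were the 7 globins, other globin genes, genes within 100 kb of a cluster at 1 TPM or more, the 3 highest of each list and members at 0; 1 gene that the rule names is not reported here. Members and lists were chosen with earlier results of these data known. Alternatives were other units, scalings (DESeq2 1.42.0 size factors, totals, spike-ins), prior counts and filters, leaving out each replicate, and coding transcripts only. Python 3.11.15, pandas 2.3.3, numpy 2.4.6, statsmodels 0.14.6 and matplotlib 3.10.9 were used.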

Additional observations from a re-analysis of the deposited data

How the results depend on the processing

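Posterior mean TPM left 6 of 7 shares and ratios within 1 SD of their value by TPM, and put the globin sum at 2.34% of gene rows. With expected counts and no length correction the embryonic share of the beta cluster was 92.7%, the Hba-x share of the alpha cluster 35.5%, the Hba-a2 share of its pair 66.8%, the Hbb-bs share of its pair 12.1%, the alpha to beta ratio 0.749, Hbb-y over Hbb-bh1 4.28, and the globin share 0.752%. Over protein-coding transcripts only, chosen after seeing the data, the first 5 of these were 93.9%, 33.4%, 88.8%, 3.55% and 0.670. The median log2 ratio of the globins between libraries was 0.063 with spike-in scaling, against -0.0014 with TMM, and lay between -0.0029 and 0.012 under the other scalings and filters; the cause was not tested. The number of genes at least 2-fold apart was 3902 of 23744 (16.4%) with no filter on low values, against 63 of 13895 (0.453%). Leaving out each replicate gave an embryonic beta share of 93.1% to 93.3%, an Hba-x share of 27.0% to 27.5%, an Hba-a2 share of 66.3% to 66.5%, an Hbb-bs share of 14.2% to 14.4%, an alpha to beta ratio of 0.814 to 0.816, an Hbb-y to Hbb-bh1 ratio of 3.87 to 3.98, a globin share of 2.385% to 2.396%, and 7 globins at 1 TPM or more each time. With 2 libraries these are the values of the library that was kept, so they add no separate check. No paired analysis was possible because there is 1 group only. With 2 pools the spread between embryos cannot be estimated.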

Other observations

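Genes around the clusters were measured in the same libraries, and the highest, Snrnp25, was below Hbb-bs summed over its transcripts and above the coding transcript of Hbb-bs. Within 100 kb outside the beta cluster lay 13 annotated genes, 12 of them olfactory receptor genes, of which 0 reached 1 TPM in both libraries. The pseudogene Dnajc19-ps had 3.07 TPM in replicate 2 and 2.76 TPM in replicate 1, on 24.8 and 18.6 estimated reads. Outside the outermost members of the alpha cluster 5 of 8 genes reached 1 TPM in both libraries, beside 32.1% of all gene rows. The 8 include the theta gene Hbq1a, which did not. Snrnp25, a gene of the minor spliceosome, had 66.9 and 58.7 TPM, Nprl3, whose introns hold alpha globin enhancers in the mouse, had 21.1 and 25.0 TPM, and the DNA repair gene Mpg, which overlaps Nprl3 on the other strand, had 19.0 and 20.6 TPM. Sh3pxd2b had 17.8 and 16.3 TPM, and Rhbdf1 had 10.8 and 10.0 TPM.

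Markers of other blood and vessel cells were present beside the globins, and their part in the globin levels was not tested. Over all gene rows 32.1% reached 1 TPM in both libraries. Of 6 platelet and megakaryocyte genes 4 reached 1 TPM, led by the chemokine genes Pf4 (64.8 ± 7.08 TPM) and Ppbp (13.8 ± 1.51 TPM) and the integrin gene Itga2b (3.71 ± 0.375 TPM), and the list summed to 89.7 TPM in replicate 2 and 80.3 TPM in replicate 1. Of 8 macrophage and leukocyte genes 7 did, led by C1qb (25.3 ± 1.86 TPM), C1qc (14.0 ± 0.714 TPM) and C1qa (11.3 ± 0.615 TPM), with sums of 73.2 and 71.0 TPM. All 6 endothelial genes did, led by Cldn5 (22.6 ± 1.12 TPM), Esam (20.95 ± 2.53 TPM) and Kdr (20.1 ± 1.82 TPM), with sums of 101.5 and 101.5 TPM. Each sum was under 1% of the globin sum of 20333 and 20310 TPM.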
